A study of Mus musculus with 6 samples.

Results

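The genes described here are 40 genes of the unfolded protein response (UPR) and the protein-making machinery of the endoplasmic reticulum (ER). They were listed by gene symbol, with earlier results of these data known but with no measured value in the rule, and all 40 were found among the 23420 genes of the deposited count table. The table comes from RNA sequencing of B cells isolated from the spleen of 3 Ahr+/+ mice and 3 Ahr-/- mice on a C57Bl/6J background. Ahr encodes AhR (aryl hydrocarbon receptor), which small aromatic ligands switch on as a transcription factor, and the comparison asks what activated B cells express differently without it. The Ahr-/- mice carried a germline deletion (B6.129-Ahr tm1Bra/J), so every cell type in the spleen lacked the functional receptor, not B cells alone. Both genotypes received the same treatment: the cells stayed 8 h in IMDM containing 5% FCS with 20 ng/ml IL-4 and 10 μg/ml α-IgM, an antibody that crosslinks the B-cell receptor. FICZ, an AhR ligand, was added at 250 nM during the last 4 h. All 6 libraries came from activated, ligand-treated cells at this one time point, and neither resting cells nor cells without FICZ were compared.

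Secretory and membrane proteins enter the ER through the Sec61 translocon and are folded there by chaperones such as BiP and by disulphide isomerases. Proteins that fail to fold are sent back to the cytosol for ER-associated degradation (ERAD). When unfolded proteins accumulate, the sensors IRE1, PERK and ATF6 start the UPR: IRE1 splices Xbp1 mRNA, ATF6 is cut into a transcription factor that acts on chaperone genes, and PERK phosphorylates the initiation factor eIF2α, which slows translation and favours ATF4. B cells are known for enlarging this machinery as they prepare to secrete antibody.

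Total counts lay between 34402709 and 40065169 in the Ahr+/+ libraries and between 22095096 and 53648787 in the Ahr-/- libraries. At these depths 3 counts correspond to 0.0555 to 0.134 CPM (counts scaled to a common library total), a floor that covers counting error only, and every one of the 40 genes was far above it, with at least 124 raw counts in each library. Libraries of one genotype differed by more than sampling noise (chi-square per degree of freedom of 3.80 to 8.80), so none was a repeat deposit of another. Ahr had 13175 ± 682 normalised read counts in Ahr+/+ against 9174 ± 472 in Ahr-/- B cells (SD, n = 3 in each genotype), and a count over all exons cannot tell the deleted part from the rest. *Cyp1a1*, a classical AhR target, checked the labels: its mean was 5246 ± 242 in Ahr+/+ against 5.36 ± 2.20 in Ahr-/- B cells (SD, n = 3 in each genotype).

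In Ahr-/- B cells most of the ER machinery was expressed at nearly the same level as in Ahr+/+ B cells, and a few named genes moved. The translocon-associated protein gene *Ssr3* and the eIF2α phosphatase subunit gene *Ppp1r15a* were 34.8% and 32.4% lower, and *Eif2ak3*, which encodes PERK, was 51.8% higher. The other 10 genes that passed the test changed by a log2 fold change of only 0.12 to 0.18 in size, and the 27 that did not pass had fitted changes of at most 0.22. Counts were compared with edgeR's quasi-likelihood test, and a gene is called here when its p-value, adjusted by the Benjamini-Hochberg method over the 13682 tested genes, was under 0.05.

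Of the 40 genes 13 were called (32.5%), against 17.9% of all tested genes. Higher in Ahr-/- B cells were 9 of them (*Manf*, *Creld2*, *Pdia4*, *Ero1lb*, *Herpud1*, *Eif2ak3*, *Atf6*, *Sec61b* and *Sec61g*), where 9.79% of all tested genes were called higher. Lower were 4 (*Pdia6*, *Ppp1r15a*, *Ssr1* and *Ssr3*), where the figure over all tested genes was 8.13%. These genes are abundant, and abundant genes were called more often: among the 8898 genes at or above the mean level of the lowest of the 40 (214 normalised read counts, *Derl3*) 21.0% were called. No overlap between the genotypes was seen for 17 of the 40 genes (42.5%), which include all 13 called ones, against 33.5% of all tested genes. A call together with an absolute log2 fold change of at least 0.5 was found for 3 (7.5%), against 6.89%. The median log2 fold change was 0.01 over the 40 genes and 0.00 over all tested genes.

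The split into higher and lower depended on the scaling. With DESeq2 size factors in the same fit 6 genes were higher and 5 lower, and with scaling by library size alone 12 were higher and 4 lower. The 5 genes *Eif2ak3*, *Atf6*, *Pdia6*, *Ppp1r15a* and *Ssr3* were called under all 15 alternative settings, and the other 8 lost the call under some. Leaving out single libraries lowered the number called to 6 without Ahr+/+ 1, to 7 without Ahr+/+ 2 and to 5 without Ahr+/+ 3 or without Ahr-/- 2.

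**Figure D1:**
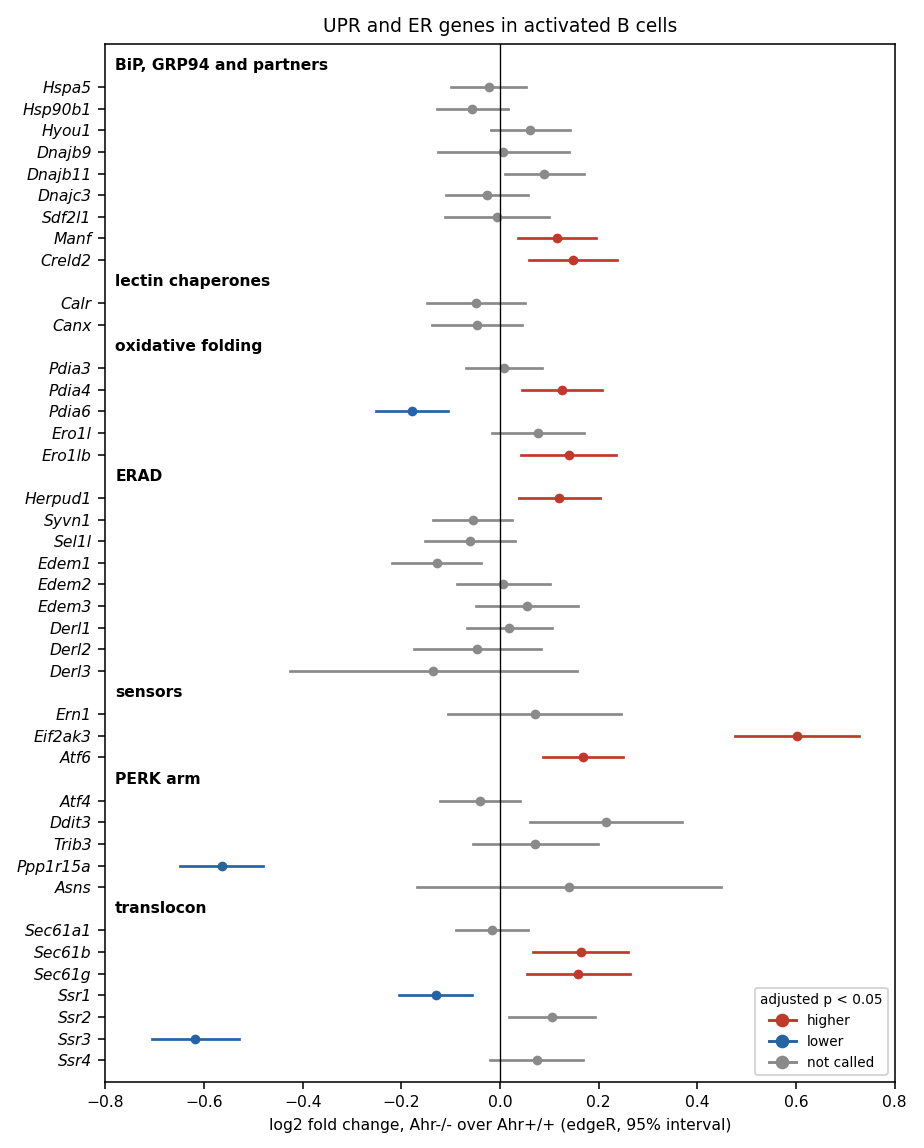
Log2 fold change (x axis, Ahr-/- over Ahr+/+) of each of the 40 genes, grouped by role, with the 95% interval by edgeR as a bar; red marks genes called higher, blue genes called lower and grey genes not called at an adjusted p-value under 0.05. *Eif2ak3* on the right and *Ppp1r15a* and *Ssr3* on the left stand away from 0, while 36 of the 40 genes lie within 0.2 of it.

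**Figure D2:**
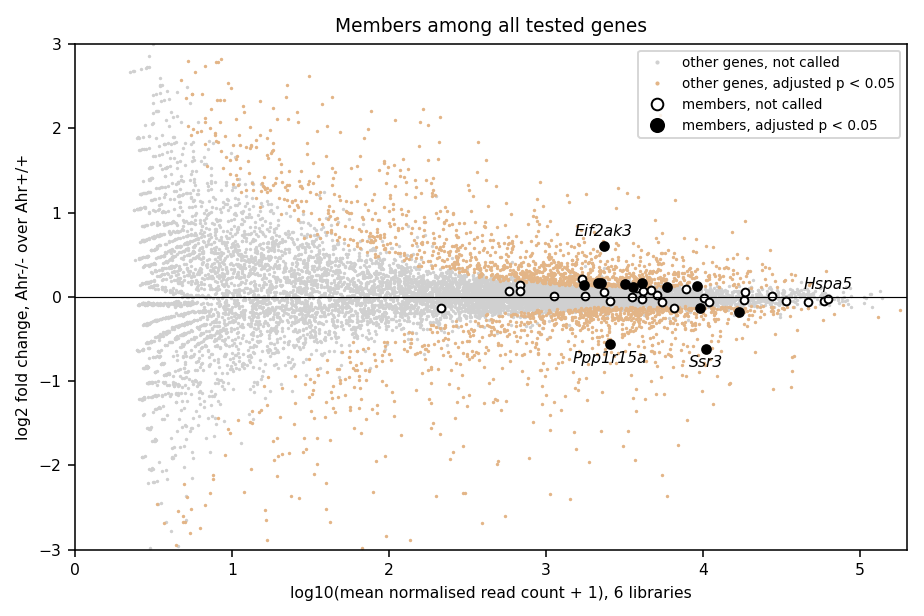
Log2 fold change (y axis, Ahr-/- over Ahr+/+) against the mean normalised read count of the 6 libraries (x axis, log10 scale after adding 1) for all tested genes; large black points are called and large open points uncalled genes of the ER list, and 68 other genes with an absolute log2 fold change above 3 are not drawn. The ER genes lie at mean counts of 214 to 62538 and mostly close to 0, apart from *Eif2ak3*, *Ppp1r15a* and *Ssr3*.

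Of the 3 sensors 2 were called, both higher. *Eif2ak3* had 1836, 1844 and 1859 normalised read counts in the Ahr+/+ libraries against 2586, 2703 and 3094 in Ahr-/- libraries. The Ahr+/+ libraries were almost equal, every Ahr-/- library was above them, and Ahr-/- 3 was the highest. The means were 1846 ± 11.6 and 2795 ± 266 (SD, n = 3 in each genotype), a log2 fold change of 0.60 (SE, the standard error, 0.058, 95% interval 0.48 to 0.73, adjusted p = 1.1e-05 by edgeR). Under the alternatives it lay between 0.52 and 0.65. *Eif2ak3* lies on chromosome 6 of GRCm38 from 70844515 to 70905245. An annotated gene on the other strand, *Gm43292*, covers 8.05% of its exon length, and a strand setting for counting is not given in the sources used here.

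*Atf6*, the membrane-bound factor that is released by cleavage in the Golgi, had 3832, 3819 and 3884 normalised read counts in Ahr+/+ and 4188, 4402 and 4354 in Ahr-/- libraries. All Ahr-/- libraries were above all Ahr+/+ libraries, with a narrow spread within each genotype. Its log2 fold change was 0.17 (SE 0.037, adjusted p = 0.0073 by edgeR), which is 12.3% higher. *Ern1*, which encodes IRE1, the RNase that splices Xbp1 mRNA, had the lowest value of the sensors per length. It had 1.82 CPM per kilobase of exon in Ahr+/+ B cells against 7.97 for *Eif2ak3* and 10.8 for *Atf6*. Exon length here merges all annotated exons of a gene and can exceed the length of an mRNA. *Ern1* had 588, 533 and 591 normalised read counts in Ahr+/+ and 527, 594 and 659 in Ahr-/- libraries. Its genotypes overlapped, and the log2 fold change of 0.07 (95% interval -0.11 to 0.25) was not called. The sensors together took 0.0161% ± 0.00022 of all counts in Ahr+/+ and 0.0202% ± 0.00097 in Ahr-/- libraries (SD, n = 3 in each genotype; two-sided exact permutation test, p = 0.1, the lowest value possible with 3 libraries against 3). Most of these counts belong to *Atf6* and *Eif2ak3*.

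Of the 5 genes downstream of PERK 1 was called, *Ppp1r15a*, which was lower. It encodes GADD34, which guides a phosphatase to eIF2α and so ends the translational block. It had 3133, 3039 and 2962 normalised read counts in Ahr+/+ and 2011, 2081 and 2078 in Ahr-/- libraries. The lowest Ahr+/+ library was well above the highest Ahr-/- library. The means were 3044 ± 86.1 and 2057 ± 39.2 (SD, n = 3 in each genotype), a log2 fold change of -0.56 (SE 0.039, 95% interval -0.65 to -0.48, adjusted p = 5.9e-07 by edgeR). It lies on chromosome 7 from 45522916 to 45526268 and shares 0.409% of its exon length with *Tulp2* on the other strand. Its constitutive counterpart *Ppp1r15b* had 10123 ± 262 and 9676 ± 180 (SD, n = 3 in each genotype), with a log2 fold change of -0.07 (adjusted p = 0.25 by edgeR).

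*Ddit3*, which encodes the transcription factor CHOP, had 1578, 1581 and 1544 normalised read counts in Ahr+/+ and 1618, 1751 and 2064 in Ahr-/- libraries. The genotypes did not overlap, but the Ahr-/- libraries spread widely, and Ahr-/- 1 was only just above the Ahr+/+ libraries. The log2 fold change was 0.22 (SE 0.071, adjusted p = 0.055 by edgeR), and adjusted p ranged from 0.0092 to 0.16 over the alternatives. *Atf4*, the central transcription factor of this arm, had 19164, 18213 and 17960 in Ahr+/+ and 18342, 17417 and 18079 in Ahr-/- libraries. Its genotypes overlapped, with a log2 fold change of -0.04 (95% interval -0.12 to 0.04, adjusted p = 0.53 by edgeR). Its translation is what PERK controls, and translation was not measured here. *Trib3*, a pseudokinase gene driven by ATF4 and CHOP, had 660 ± 33.2 and 693 ± 6.83 normalised read counts (SD, n = 3 in each genotype) and was not called. *Asns*, which encodes asparagine synthetase, had 559, 661 and 727 in Ahr+/+ and 829, 798 and 532 in Ahr-/- libraries. Ahr-/- 3 was the lowest of the 6 for *Asns* and the highest for *Ddit3* and *Eif2ak3*. The log2 fold change of *Asns* was 0.14 (95% interval -0.17 to 0.45) and was not called with all libraries. Without Ahr-/- 3 it was 0.32 (adjusted p = 0.026 by edgeR), and adjusted p ranged from 0.026 to 0.93 over the alternatives.

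**Figure D3:**
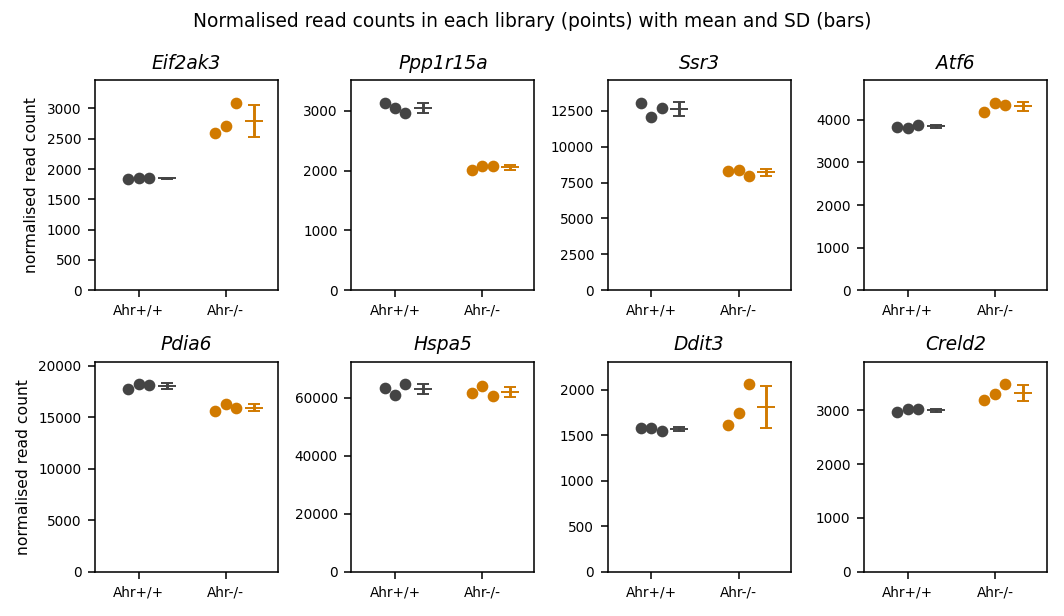
Normalised read counts (y axis, from 0) of 8 ER genes in each of the 3 Ahr+/+ (grey) and 3 Ahr-/- (orange) libraries, as points, with the mean and SD beside them. *Eif2ak3*, *Ppp1r15a*, *Ssr3*, *Atf6*, *Pdia6* and *Creld2* separate by genotype, *Ddit3* separates with a wide Ahr-/- spread of 1618 to 2064, and *Hspa5* overlaps.

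At the translocon the 7 genes were called in both directions, 2 higher and 2 lower. *Ssr3* encodes the gamma subunit of the translocon-associated protein (TRAP) complex, which sits beside the Sec61 channel. It had 13059, 12062 and 12713 normalised read counts in Ahr+/+ and 8331, 8374 and 7954 in Ahr-/- libraries. The genotypes were far apart, and in this fit no other of the 40 genes had a larger change in size. The means were 12611 ± 506 and 8219 ± 231 (SD, n = 3 in each genotype), a log2 fold change of -0.62 (SE 0.040, 95% interval -0.71 to -0.53, adjusted p = 3.8e-07 by edgeR). Under the alternatives it lay between -0.65 and -0.59.

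The other TRAP subunits had smaller fitted changes. *Ssr1*, the alpha subunit, had 10099, 9785 and 10127 normalised read counts in Ahr+/+ and 9227, 9054 and 9136 in Ahr-/- libraries. It was lower in every Ahr-/- library, but only by 8.66% by the fit (log2 fold change -0.13, SE 0.034, adjusted p = 0.018 by edgeR). This call was lost under 4 of the 15 alternatives. *Ssr2*, the beta subunit, had 3673 ± 118 in Ahr+/+ against 3949 ± 99.1 in Ahr-/- B cells (SD, n = 3 in each genotype), and its log2 fold change of 0.11 was not called (adjusted p = 0.096 by edgeR). *Ssr4*, the delta subunit, had a log2 fold change of 0.07 (95% interval -0.02 to 0.17) and was not called. Per merged exon length, *Ssr3* had the highest value of these 4 genes in Ahr+/+ B cells, at 78.6 CPM per kilobase, and had 51.3 in Ahr-/- B cells. The order by mRNA length can differ and was not examined. *Ssr2* had 51.3 in Ahr+/+ against 55.1 in Ahr-/- B cells on the same scale.

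Among the channel subunits, *Sec61a1*, which encodes the pore itself, had 10214 ± 107 normalised read counts in Ahr+/+ against 10093 ± 164 in Ahr-/- B cells (SD, n = 3 in each genotype) and was not called. The small subunits moved up slightly. *Sec61b* had 1981, 2029 and 2053 in Ahr+/+ and 2367, 2300 and 2136 in Ahr-/- libraries (log2 fold change 0.16, SE 0.044, adjusted p = 0.022 by edgeR). *Sec61g* had 2142, 2067 and 2159 in Ahr+/+ and 2497, 2419 and 2206 in Ahr-/- libraries (log2 fold change 0.16, SE 0.048, adjusted p = 0.039 by edgeR). For both, Ahr-/- 3 lay closest to the Ahr+/+ libraries, and both calls were lost under 6 of the 15 alternatives. The translocon genes together took 0.115% ± 0.0024 of all counts in Ahr+/+ and 0.106% ± 0.0018 in Ahr-/- libraries (SD, n = 3 in each genotype; two-sided exact permutation test, p = 0.1, the lowest value possible). The fall in this share was mainly that of *Ssr3*, and 4 of the 7 genes had log2 fold changes above 0.

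*Ssr3* lies on chromosome 3 of GRCm38 from 65379655 to 65392623 on the minus strand, and no other annotated exon overlaps its exons. Among the uncalled genes, exons on the other strand share 12.8% of the exon length of *Ssr2*, 10.3% of *Hsp90b1* and 8.16% of *Sec61a1*. On that chromosome the nearest tested genes were *Kcnab1*, 1432 bp away (log2 fold change -1.11, adjusted p = 0.16 by edgeR), and the AhR target *Tiparp*, 135787 bp away. *Tiparp* fell from 24015 ± 986 to 1218 ± 60.9 normalised read counts (SD, n = 3 in each genotype). Whether the 2 changes are linked was not tested. The nearest tested gene to *Eif2ak3* was *Rpia*, 52283 bp away, with a log2 fold change of 0.26 (adjusted p = 2.3e-04 by edgeR), and the other neighbour was *Thnsl2*, 222921 bp away, which was not called (-0.46, adjusted p = 0.81 by edgeR).

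The chaperones held most of the counts of the 40 genes, and of the 9 Hsp-type chaperones and partners 2 were called, both higher. Per merged exon length, *Calr* had the highest value of the genes with an annotated length in Ahr+/+ B cells, at 545 CPM per kilobase, followed by *Hspa5* at 388 and *Hsp90b1* at 308. *Hspa5*, which encodes BiP, the Hsp70 of the ER and the usual reference transcript of UPR activity, had 63423, 61064 and 64648 normalised read counts in Ahr+/+ and 61754, 63936 and 60404 in Ahr-/- libraries. The genotypes overlapped, and the 95% interval of the log2 fold change of -0.02 ran from -0.10 to 0.05. *Hsp90b1*, which encodes GRP94, the Hsp90 of the ER, had 47692 ± 1367 and 45879 ± 479 (SD, n = 3 in each genotype). Its log2 fold change of -0.06 (95% interval -0.13 to 0.02) was not called either. *Hyou1*, a nucleotide exchange factor for BiP, had a log2 fold change of 0.06 (95% interval -0.02 to 0.14).

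The J-domain partners of BiP were not called. *Dnajb9*, a known target of spliced XBP1, had 1125, 1076 and 1128 normalised read counts in Ahr+/+ and 1189, 1152 and 1013 in Ahr-/- libraries, with a log2 fold change of 0.01 (95% interval -0.13 to 0.14). *Dnajb11* had a log2 fold change of 0.09 with genotypes that did not overlap (adjusted p = 0.12 by edgeR). *Dnajc3* had -0.03, and the J-protein partner *Sdf2l1* had -0.01.

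A pair of small ER-stress proteins did pass the test. *Creld2* had 2974, 3026 and 3020 normalised read counts in Ahr+/+ and 3194, 3300 and 3489 in Ahr-/- libraries (log2 fold change 0.15, SE 0.041, adjusted p = 0.024 by edgeR). *Manf*, a secreted factor held in the ER by BiP, had 5484, 5654 and 5775 in Ahr+/+ and 6137, 6093 and 6102 in Ahr-/- libraries (log2 fold change 0.12, SE 0.036, adjusted p = 0.045 by edgeR). Both were higher in every Ahr-/- library, by 10.8% and 8.39% by the fit. The *Creld2* call was lost under 5 of the 15 alternatives. The *Manf* call was lost under 10 of them, and genes on the other strand share up to 4.71% of the *Manf* exon length. The lectin chaperones, which fold glycoproteins, were not called: *Calr* had a log2 fold change of -0.05 (95% interval -0.15 to 0.05) and *Canx* -0.05 (95% interval -0.14 to 0.04).

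Of the 5 genes of oxidative folding 3 were called, in opposite directions. *Pdia6*, a disulphide isomerase gene, had 17701, 18207 and 18152 normalised read counts in Ahr+/+ and 15594, 16249 and 15917 in Ahr-/- libraries. Every Ahr-/- library was lower, and the means were 18020 ± 278 and 15920 ± 327 (SD, n = 3 in each genotype). The log2 fold change was -0.18 (SE 0.034, adjusted p = 0.0024 by edgeR).

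*Pdia4*, another isomerase gene, had 8499, 8870 and 8939 in Ahr+/+ and 9519, 9811 and 9351 in Ahr-/- libraries (log2 fold change 0.12, SE 0.037, adjusted p = 0.036 by edgeR). *Ero1lb*, one of the oxidases that recharge the isomerases, had 1724, 1583 and 1676 in Ahr+/+ and 1860, 1845 and 1784 in Ahr-/- libraries (log2 fold change 0.14, SE 0.044, adjusted p = 0.048 by edgeR). Both were higher in every Ahr-/- library. The *Ero1lb* call was lost under 8 of the 15 alternatives and the *Pdia4* call under 6. The other oxidase gene, *Ero1l*, had 4550 ± 190 and 4803 ± 147 (SD, n = 3 in each genotype) and was not called. *Pdia3*, which works with the lectin chaperones, had a log2 fold change of 0.01 (95% interval -0.07 to 0.09).

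*Pdia6* lies on chromosome 12 from 17266545 to 17284770, 18.2 Mb from *Ahr* itself, which spans 35497974 to 35535038. The other genes of the set on this chromosome, *Dnajb9* at 8.67 Mb and *Sel1l* at 56.3 Mb from *Ahr*, were not called. The nearest tested gene to *Pdia6* was *Nol10*, 63688 bp away, with a log2 fold change of -0.34 (adjusted p = 3.8e-05 by edgeR). The other neighbour, *Kcnf1*, 89657 bp away, was called in the opposite direction (adjusted p = 0.021 by edgeR), at a mean of only 1.79 normalised read counts over the 6 libraries. Whether the *Pdia6* change comes with the chromosome region that carries the deletion was not tested.

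In ERAD 1 of the 9 genes was called. *Herpud1*, which assembles the membrane complex for retrotranslocation, had 3394, 3493 and 3467 normalised read counts in Ahr+/+ and 3647, 3743 and 3855 in Ahr-/- libraries. It was higher in every Ahr-/- library (log2 fold change 0.12, SE 0.038, adjusted p = 0.045 by edgeR), a call lost under 10 of the 15 alternatives. *Edem1*, a lectin that extracts misfolded glycoproteins, had 6700, 6946 and 6904 in Ahr+/+ and 6616, 6118 and 6086 in Ahr-/- libraries. It was lower in every Ahr-/- library, with a log2 fold change of -0.13 just outside the threshold (SE 0.042, adjusted p = 0.051 by edgeR). Adjusted p for *Edem1* ranged from 0.017 to 0.19 over the alternatives.

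The remaining ERAD genes were not called. The ubiquitin ligase gene *Syvn1*, which encodes HRD1, and its partner *Sel1l* had log2 fold changes of -0.06 and -0.06. *Edem2* and *Edem3* had 0.01 and 0.06, and the derlin genes *Derl1* and *Derl2* had 0.02 and -0.05. *Derl3* was the least abundant of the 40, with 184, 272 and 216 normalised read counts in Ahr+/+ and 213, 198 and 202 in Ahr-/- libraries. Its interval was wide, from -0.43 to 0.16, with Ahr+/+ 2 the highest library. ERAD genes together took 0.1002% ± 0.0011 of all counts in Ahr+/+ and 0.0997% ± 0.00041 in Ahr-/- libraries (SD, n = 3 in each genotype). All 40 genes took 1.09% ± 0.018 and 1.08% ± 0.0068 (SD, n = 3 in each genotype; two-sided exact permutation test, p = 0.8).

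Many ER chaperone genes carry the ER stress response element (ERSE) before their start, the letters CCAAT and CCACG 9 bases apart. NF-Y binds the first part and ATF6 or XBP1 the second. The sequences are printed because they split the set into genes with and without this element, which can then be compared. Windows of 300 bases, from 250 before to 50 after the start, were matched by symbol in the RefSeq promoter table (build GRCm38.p6) for 32 of the 40 genes. On either strand, ERSE was found in 9 of these 32 genes (28.1%), against 0.119% of all 32851 windows. In each match the CCAAT and CCACG parts are in capitals, written 5′ to 3′ on the strand that reads CCAAT first:
Hspa5: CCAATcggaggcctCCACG
Hsp90b1: CCAATcgcaaggagCCACG
Hsp90b1: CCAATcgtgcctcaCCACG
Dnajc3: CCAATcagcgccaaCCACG
Creld2: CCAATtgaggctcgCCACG
Calr: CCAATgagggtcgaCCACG
Canx: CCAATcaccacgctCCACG
Pdia6: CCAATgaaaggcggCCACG
Syvn1: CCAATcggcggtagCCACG
Derl3: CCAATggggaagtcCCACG

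The 9 genes with an ERSE match had log2 fold changes from -0.18 (*Pdia6*) to 0.15 (*Creld2*), with a median of -0.05, and 8 of the 9 were below 0. Of these, *Creld2* was called higher, *Pdia6* was called lower and 7 were not called, so 22.2% were called against 17.9% of all tested genes. Among the 23 genes with a window and no ERSE match, 5 were called higher and 3 lower. Their median log2 fold change was 0.06, with 15 above 0 and 8 below. The 2 called ERSE genes went in opposite directions, and their promoters are given for that reason, with the element in capitals. The 250 bases before the start of *Pdia6* (chr12:17266339-17266588, plus strand) hold the element from 98 to 80 bases before the start. Those of *Creld2* (chr15:88819396-88819645, plus strand) hold it in the opposite orientation from 126 to 108 bases before the start:
Pdia6: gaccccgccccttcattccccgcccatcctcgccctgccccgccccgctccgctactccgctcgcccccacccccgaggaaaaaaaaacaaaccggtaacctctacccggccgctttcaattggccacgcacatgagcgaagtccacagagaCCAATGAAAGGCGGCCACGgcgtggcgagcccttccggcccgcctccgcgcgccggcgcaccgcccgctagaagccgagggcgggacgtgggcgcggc
Creld2: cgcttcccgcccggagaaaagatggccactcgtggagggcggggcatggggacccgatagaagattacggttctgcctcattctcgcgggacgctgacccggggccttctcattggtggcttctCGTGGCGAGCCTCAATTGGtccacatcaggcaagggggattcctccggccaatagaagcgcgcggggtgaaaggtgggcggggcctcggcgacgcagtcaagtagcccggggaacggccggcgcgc

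The related ERSE-II, ATTGG and CCACG 1 base apart, was searched after the data were seen. It was found in 2 of the 32 genes (6.25%), against 0.0365% of all windows, in *Herpud1* (called higher) from 52 to 42 bases before the start and in *Dnajb11* (not called) from 8 to 18 bases after it, with ATTGG and CCACG in capitals:
Herpud1: ATTGGgCCACG
Dnajb11: ATTGGcCCACG

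The promoters of *Ssr3* and *Eif2ak3*, which had the largest changes in each direction, held no ERSE or ERSE-II match. Single CCAAT and CCACG letters, on either strand, are in capitals (ATTGG is CCAAT on the other strand). The 250 bases of *Ssr3* are chr3:65392554-65392803 on the minus strand and those of *Eif2ak3* are chr6:70844265-70844514 on the plus strand:
Ssr3: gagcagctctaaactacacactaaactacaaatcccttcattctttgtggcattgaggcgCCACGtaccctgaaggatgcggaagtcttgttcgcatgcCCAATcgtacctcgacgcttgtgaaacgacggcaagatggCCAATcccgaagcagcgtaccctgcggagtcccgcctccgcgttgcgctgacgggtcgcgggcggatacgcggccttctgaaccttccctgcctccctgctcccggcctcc
Eif2ak3: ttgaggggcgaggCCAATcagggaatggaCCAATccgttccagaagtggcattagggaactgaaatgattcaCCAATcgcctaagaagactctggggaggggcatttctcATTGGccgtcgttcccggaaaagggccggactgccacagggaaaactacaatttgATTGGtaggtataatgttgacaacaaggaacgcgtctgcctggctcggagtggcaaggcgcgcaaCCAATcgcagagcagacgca

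The XBP1 motif TGACGTGG (UPRE core) was in none of the 32 genes, against 0.676% of all windows. TGATGCAA, an ATF4 and CHOP composite, was in 1, *Herpud1*, against 0.895% of all windows. The core to which AhR and its partner bind, GCGTG, was in 22 of the 32 genes (68.8%), against 32.4% of all windows and 61.3% of the 7822 windows whose GC content was at or above the median of these genes (62.3%). GCGTG was present in 5 of the 10 called genes with a window and in 17 of the 22 uncalled ones. It was in neither *Ssr3* nor *Eif2ak3* within the window, and it was in *Ppp1r15a* and *Pdia6*. A match is a stretch of letters, not a measured binding site, and binding was not measured.

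Around these 40 genes, another 120 genes of the same pathways were listed by function, of which 119 were in the table and 115 were tested. Called higher were 9 and lower 11, together 17.4%, close to the 17.9% of all tested genes, and their median log2 fold change was 0.02. The split into higher and lower changed with the scaling and with the libraries used. Among 23 further UPR regulators 2 were higher and 3 lower. *Xbp1*, the substrate of IRE1, rose from 7555 ± 214 to 8976 ± 225 normalised read counts (SD, n = 3 in each genotype; log2 fold change 0.25, adjusted p = 5.1e-04 by edgeR). Gene counts do not separate spliced from unspliced Xbp1 mRNA. *Atf3*, a stress-induced factor acting downstream of ATF4, fell from 333 ± 26.7 to 254 ± 16.0 (SD, n = 3 in each genotype; log2 fold change -0.40, adjusted p = 0.0083 by edgeR). *Nfyb*, which encodes a subunit of NF-Y, had a log2 fold change of -0.26 (adjusted p = 0.0013 by edgeR).

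Of 18 tested ATF4 target genes 2 were higher and 4 lower. *Ddit4*, a stress-induced inhibitor of mTORC1 signalling, fell from 2421 ± 136 to 692 ± 56.4 normalised read counts (SD, n = 3 in each genotype), a log2 fold change of -1.80 (adjusted p = 1.1e-09 by edgeR). *Cth*, which makes cysteine, had -0.75 (adjusted p = 0.0496 by edgeR), and *Chac1*, which degrades glutathione, had 0.32 (adjusted p = 0.029 by edgeR). Of 26 further folding genes 1 was higher and 1 lower. *Cnpy3*, a GRP94 partner needed for Toll-like receptor folding, fell from 7389 ± 267 to 4619 ± 83.0 (SD, n = 3 in each genotype; log2 fold change -0.68, adjusted p = 1.2e-07 by edgeR). *Txndc11*, a thioredoxin-domain protein gene, had 0.16 (adjusted p = 0.013 by edgeR).

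Of 21 further ERAD genes 1 was higher and 2 lower. *Erlin1* had a log2 fold change of 0.38 (adjusted p = 1.7e-04 by edgeR). The segregase gene *Vcp*, whose product pulls substrates from the membrane, had -0.14 (adjusted p = 0.012 by edgeR), and its cofactor *Nploc4* had -0.13 (adjusted p = 0.035 by edgeR). Of 27 genes for targeting, translocation and glycosylation 3 were higher and 1 lower. *Sec11c*, a signal peptidase subunit gene, had 0.34 (adjusted p = 2.0e-04 by edgeR), and *Tusc3*, of the oligosaccharyltransferase complex, had 0.33 (adjusted p = 0.0052 by edgeR). *Srp54a*, of the signal recognition particle, had 0.49, which is uncertain because near-identical copies can share its reads. The gene called lower was *Stt3b*, a catalytic subunit of the oligosaccharyltransferase, with -0.31 (adjusted p = 1.3e-04 by edgeR).

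Markers of the cultured cells moved between genotypes as well. Of 8 B-cell markers 6 were higher, with summed normalised read counts of 102226 to 111544 in Ahr+/+ and 123466 to 131103 in Ahr-/- libraries, and all of them were abundant. Of 10 plasma-cell markers 3 were higher and 3 lower, with sums of 37709 to 41857 and 42384 to 42799. Among these, *Sdc1*, the surface marker of plasma cells, had 225 ± 46.5 and 212 ± 26.4 (SD, n = 3 in each genotype) and was not called. The 3 called higher were *Slamf7*, from 3253 ± 134 to 4764 ± 200.1, *Irf4*, from 17265 ± 1163 to 20951 ± 1412, and *Xbp1* (SD, n = 3 in each genotype). The 3 called lower were *Cd28*, *Prdm1* and *Igj*. *Prdm1*, the regulator of plasma-cell fate, fell from 215 ± 30.5 to 138 ± 16.6 and *Igj*, the joining chain gene, from 9656 ± 2811 to 5098 ± 718 (SD, n = 3 in each genotype). Of 10 plasmacytoid dendritic cell markers 8 were higher and 1 lower, with sums of 12277 to 13421 and 13220 to 14556. *Siglech* rose from 56.8 ± 4.19 to 270 ± 32.3, and *Tcf4*, the lower one, fell from 7537 ± 330 to 4680 ± 226 (SD, n = 3 in each genotype). *Tcf4* made up most of the sum in the Ahr+/+ libraries.

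Of 8 conventional dendritic cell markers 4 were higher and 1 lower (sums of 820 to 937 and 882 to 1073). The lower one was *Zbtb46*, from 552 ± 23.9 to 418 ± 23.2 (SD, n = 3 in each genotype), which made up most of the Ahr+/+ sum. *Flt3* had a log2 fold change of -0.20 and was not called. The 4 higher were *Itgax*, from 148 ± 38.7 to 302 ± 53.9 (SD, n = 3 in each genotype), and the scarcer *Clec9a*, *Clec10a* and *Cd209a*. Of 8 T-cell markers 1 was higher and 1 lower (sums of 6047 to 6444 and 6120 to 7077, of which *Lck* made up most). The T-cell marker called lower was *Cd3e*, from 33.9 ± 9.88 to 14.1 ± 0.71, and the one called higher was *Cd5*, from 54.1 ± 12.2 to 135 ± 25.0 (SD, n = 3 in each genotype). Over the T-cell list 4 log2 fold changes were above 0 and 4 below. Of 10 myeloid markers 1 was higher and 1 lower (sums of 896 to 1392 and 358 to 1173). The lower one, *Emr1*, the most abundant of the 10 in Ahr+/+ B cells, fell from 650 ± 14.7 to 54.1 ± 16.1, and the higher one, *Cd14*, rose from 7.08 ± 3.86 to 24.7 ± 13.1 (SD, n = 3 in each genotype). The other 8 were not called, and 9 of the 10, all but *Emr1*, had log2 fold changes above 0, among them *Lyz2* with 0.73 and *Csf1r* with 0.60. No listed marker was at 0 in both genotypes, and *Tcf4*, *Irf4*, *Xbp1*, *Mzb1* and *Slamf7* are also expressed by activated B cells. The part these cell types have in the changes of the ER genes was not tested. In bulk RNA, fewer cells of a type and less RNA per cell cannot be told apart.

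**Figure D4:**
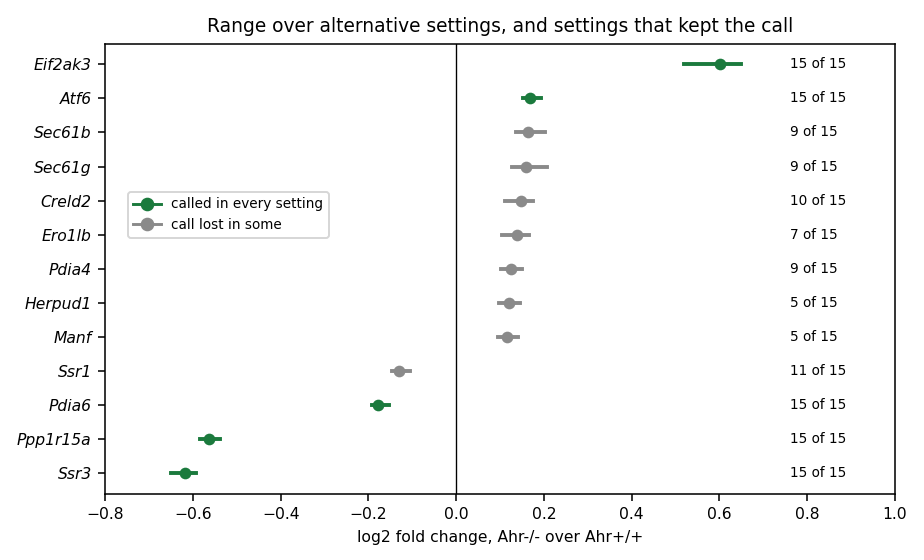
Log2 fold change (x axis, Ahr-/- over Ahr+/+) of the 13 called ER genes, with the point at the reported value, the bar from the lowest to the highest value over 15 alternative settings, and at the right the number of settings that kept the call. Green marks the 5 genes called in every setting and grey the 8 that lost the call in some, and no bar crosses 0.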

How the data were processed

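RNA from B cells of 3 Ahr+/+ and 3 Ahr-/- mice was made into stranded mRNA libraries (TruSeq) and sequenced on an Illumina HiSeq by the authors, who deposited raw counts of reads per gene. The submitters' processing notes name TopHat2 (version 2), HTSeq, DESeq and build mm10, without role or order, and a strand setting for counting is not given in the sources used here. The deposited normalised counts and the authors' own comparison (mean levels, fold changes, p-values) were not used.

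The 13682 genes with at least 10 counts in total were compared in R 4.3.3 with edgeR 4.0.16 (TMM scaling, glmQLFit, glmQLFTest, genotype as the only term, prior count 0.125), after the pipeline was tested on simulated data. Normalised read counts are counts divided by the TMM-scaled library size relative to the mean of the 6 libraries. The Benjamini-Hochberg adjustment covered all tested genes, and intervals are 95% intervals. Depth and its floor of 3 counts are given in the report and cover counting error only. The common biological coefficient of variation was 0.048. Replicates are mice, and each was 1 library.

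Alternatives were other scalings, filters, prior count and threshold, DESeq2 1.42.0, a robust fit, a replicate block and leaving out each library. Positions and exon overlaps come from GENCODE M21 (GRCm38). *Ddit3* had more than 1 record there and was given no position or length. Promoter windows come from RefSeq (GRCm38.p6). The 40 genes and all lists were chosen with earlier results of these data known. Named were all 40 genes by role, in each further pathway list the 3 called genes with the largest change and a mean of at least 10 normalised read counts in the higher genotype, defining markers, and the promoters of up to 4 called genes with ERSE and up to 2 called genes with the largest change and none. *Ppp1r15b*, *Rpia*, *Nol10*, *Kcnab1*, *Kcnf1*, *Thnsl2*, *Tiparp*, *Stt3b*, *Emr1*, *Cd14*, *Lyz2*, *Slamf7*, *Irf4*, *Cd28*, *Cd5*, *Tcf4*, *Itgax*, *Clec9a*, *Clec10a* and *Cd209a* were named after their values were seen.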

Additional observations from a re-analysis of the deposited data

How the results depend on the processing

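Fits under 15 alternative settings kept the sign of all 13 called ER genes. The number called was 13 with edgeR, 5 at an adjusted p-value under 0.01, and 5 to 11 with each library left out in turn. Of these, the number higher was 9, 2 and 2 to 7, and the number lower was 4, 3 and 3 to 5. The median log2 fold change of the 40 genes was 0.01, and 0.0389 with library size alone. Among the other pathway genes the 11 called lower became 6 with library size alone, 5 at an adjusted p-value under 0.01, and 6 to 13 with single libraries left out, and the 9 called higher became 11, 6 and 7 to 14 in the same order. Over all genes 2453 became 1473 at an adjusted p-value under 0.01. A stricter threshold calls fewer genes by construction, and for the other settings the cause was not tested. Without single libraries some calls were gained as well, for *Edem1* and *Ddit3* without Ahr-/- 1 and for *Asns* without Ahr-/- 3. With DESeq2 in place of edgeR 13 of the 40 genes were called, but not the same 13: *Ero1lb* and *Herpud1* lost the call and *Edem1* and *Ddit3* gained it.

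Among uncalled genes the sign changed with library size alone for *Hspa5* (0.0020), *Sdf2l1* (0.0190) and *Sec61a1* (0.0084). With single libraries left out the log2 fold change ranged from -0.0316 to 0.0724 for *Dnajb9*, from -0.0603 to 0.0214 for *Sdf2l1*, from -0.0106 to 0.0347 for *Pdia3*, from -0.0130 to 0.0398 for *Edem2*, from -0.0122 to 0.0398 for *Derl1*, from -0.105 to 0.0277 for *Derl2*, from -0.263 to 0.0315 for *Derl3* and from -0.0106 to 0.134 for *Ern1*.

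Replicate numbers are shared between genotypes, but same-numbered libraries did not deviate together (r of -0.03, 0.12 and -0.04 across genes, which are not independent replicates), and Ahr+/+ 1 and 3 correlated best with Ahr-/- libraries of another number. With a replicate block 10 of the 40 genes were called, 6 higher and 4 lower, and 2303 over all genes. Libraries of one genotype differed beyond counting noise, and whether more reads or more mice would narrow the intervals was not tested.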
